A study of Homo sapiens with 7 samples.

Results

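DNMT1 was knocked down in HT29 cells, an established human colorectal adenocarcinoma line that can form mucus-secreting and absorptive cells in culture. The comparison rests on 2 of the 7 arrays of the series, chosen by their sample labels. On 1 array RNA of HT29 cells carrying DNMT1 shRNA number 49 was set against RNA of HT29 cells with a non-silencing control, and on the other RNA of HT29 cells carrying DNMT1 shRNA number 51 was set against the same kind of control. DLD1 and RKO, other colorectal cancer lines, were treated likewise with 1 array per shRNA, and 1 further array set HCT116 cells with an shRNA against UHRF1 against HCT116 cells with a non-silencing control. All are 2-colour arrays, on which knockdown and control RNA carry different dyes and compete for the same probes. The labels do not give the time between knockdown and harvest of the DNMT1 samples, whether cells were pooled or cloned, whether the arrays came from separate cultures, or whether a line's control RNA was the same on both of its arrays. The spread between them may therefore be technical.

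DNMT1 is the maintenance DNA methyltransferase: it copies the methyl marks of CpG sites onto the new strand after DNA is replicated. UHRF1 recognises half-methylated CpG sites and brings DNMT1 to them, while DNMT3A and DNMT3B can methylate DNA anew. Genes of the germ line, many of them on the X chromosome, are known to be kept silent in body cells by promoter methylation, and tumour cells stripped of methylation can switch them on. Loss of methylation is also known to let cells transcribe repeat elements whose double-stranded RNA can be sensed and answered by an interferon response.

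A value is a log2 ratio of knockdown over control, so that 1 means 2-fold higher and -1 means 2-fold lower with the knockdown. The labels do not state that direction. It was read from DNMT1, which lay below 0 on all 6 DNMT1 arrays, and is likely rather than settled. The knockdown RNA carried Cy3 with shRNA 49 and Cy5 with shRNA 51, so the shRNA and the dye cannot be told apart. Both HT29 arrays gave a value for 16963 of 18646 genes. With shRNA 51 no ratio was listed for 5073 of 41000 probes, against 352 with shRNA 49, and the interquartile range was 0.778 with shRNA 51 and 0.636 with shRNA 49. Of the ratios, 36.0% (shRNA 49) and 34.7% (shRNA 51) were held exactly by another probe of the array; such values are called shared ratios here, and the reason for them is not given in the sources used here. In all, 9177 genes had no shared ratio on either HT29 array. The values are ratios, so the levels of colon markers could not be checked.

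DNMT1 stood at -2.07 in HT29 with shRNA 49 and -0.92 with shRNA 51. Its level was thus 23.8% of control with shRNA 49 and 52.8% with shRNA 51. The HT29 mean of -1.50 ± 0.32 (SE, n = 2 arrays) did not pass the test against 0 (limma, adjusted p = 0.366). This SE is that of a fit to all 6 DNMT1 arrays, given below, and leaves out the difference between the shRNAs. DLD1 stood at -1.97 and -2.17 and RKO at -3.27 and -2.35, so HT29 with shRNA 51 was the array on which DNMT1 lay nearest 0, a comparison of single arrays. Its HT29 gap between shRNAs, set against the gap in DLD1 and RKO, did not pass (limma, adjusted p = 1.00).

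Of the de novo enzymes, DNMT3A lay at -0.30 and 0.96 and DNMT3B at -0.19 and 0.53 in HT29, with shRNA 49 and then shRNA 51. UHRF1 lay at -0.28 and 0.39, means of 4 probes, 1 of which held shared ratios. MBD4, a DNA glycosylase that repairs mismatches at CpG sites, lay at -1.19 and 0.34. Of the 15 genes of the DNA methylation machinery with both HT29 values, 0 passed in limma in either direction, and 0 were higher and 1, DNMT1 itself, lower at an unadjusted p under 0.05. On both arrays 3 of the 15 lay above 0, against 27.3% of all genes, and DNMT1 was the 1 below 0, against 24.9%.

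Genes higher in HT29 were asked for first. The test fitted all 6 DNMT1 arrays with 1 coefficient per line and a term for the shRNA, and compared the HT29 coefficient with 0. Of 16809 genes tested, 11 rose (0.0654%) and 0 fell with limma at an adjusted p under 0.05, while 982 were higher and 470 lower at an unadjusted p under 0.05. Of the 11, 6 were on the list of cancer-testis antigens, which the testis makes and tumours can express. All 11 were at least 4-fold higher on both HT29 arrays and all lacked shared ratios there. The count depended on the model. It gave 0 genes without the shRNA term, 0 from the HT29 arrays alone, 0 without any 1 of the HT29 arrays or of the DLD1 arrays, and 12 without either RKO array. It gave 3, CTAG1A, VCX and VCX3A, when genes blank on 1 HT29 array were also tested, and 45, 39 and 50 after quantile normalization, after scaling of the arrays and without shared ratios.

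Among the X-linked cancer-testis antigens, VCX stood at 5.52 with shRNA 49 and 7.71 with shRNA 51 in HT29. It rose 98.3-fold on average (6.62 ± 0.27, SE, n = 2 arrays, limma adjusted p = 0.0239). VCX3A, of the same gene family, stood at 4.73 and 8.11 and rose by 6.42 ± 0.29 (limma adjusted p = 0.0239). The SEs of HT29 means here and below are those of the fit to all 6 DNMT1 arrays. They leave out the difference between the shRNAs and are not the spread of the 2 HT29 values. CTAG1A, of the NY-ESO-1 family, stood at 4.77 and 6.05 and rose 42.5-fold (limma adjusted p = 0.0239). These 3 genes were at 4.06 or above in DLD1 and RKO too, on each of the 4 arrays. MAGEC2, a MAGE family tumour antigen, stood at 5.03 and 7.22 in HT29, against -0.24 and 3.99 in DLD1 and 1.73 and 5.63 in RKO. It rose 69.8-fold in HT29 (limma adjusted p = 0.0460), and its HT29 values lay above those of the other lines for the same shRNA. MAGEC1 rose by 3.54 ± 0.23 and CT45A1 by 4.98 ± 0.34 (limma adjusted p = 0.0460 for both), with MAGEC1 at 2.11 and 4.97 and CT45A1 at 4.16 and 5.81. Members of the VCX, GAGE, PAGE, MAGE, SPANX, CT45 and CTAG families are close copies that may bind the same probes, so the copy behind a value is uncertain.

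The other 5 genes that rose were not on the list of cancer-testis antigens. BATF, a leucine zipper transcription factor of lymphocytes, stood at 4.24 and 5.38 in HT29, against 0.69 and 0.71 in DLD1 and 2.69 and 3.05 in RKO. It rose 28.0-fold in HT29 (4.81 ± 0.29, limma adjusted p = 0.0460). KRT7, a keratin of simple ductal epithelia that is usually low in colon, stood at 4.49 and 5.63 (limma adjusted p = 0.0460). FSTL1, a secreted glycoprotein gene, stood at 3.47 and 4.60 and COX7B2, a testis form of a cytochrome c oxidase subunit, at 3.26 and 6.02 (limma adjusted p = 0.0460 for both). All of these were above 0 on every DNMT1 array. LINC02381, a long non-coding RNA, stood apart: it lay at 4.47 and 4.53 in HT29 and between -1.19 and 0.50 in DLD1 and RKO (limma adjusted p = 0.0460 in HT29).

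**Figure D1:**
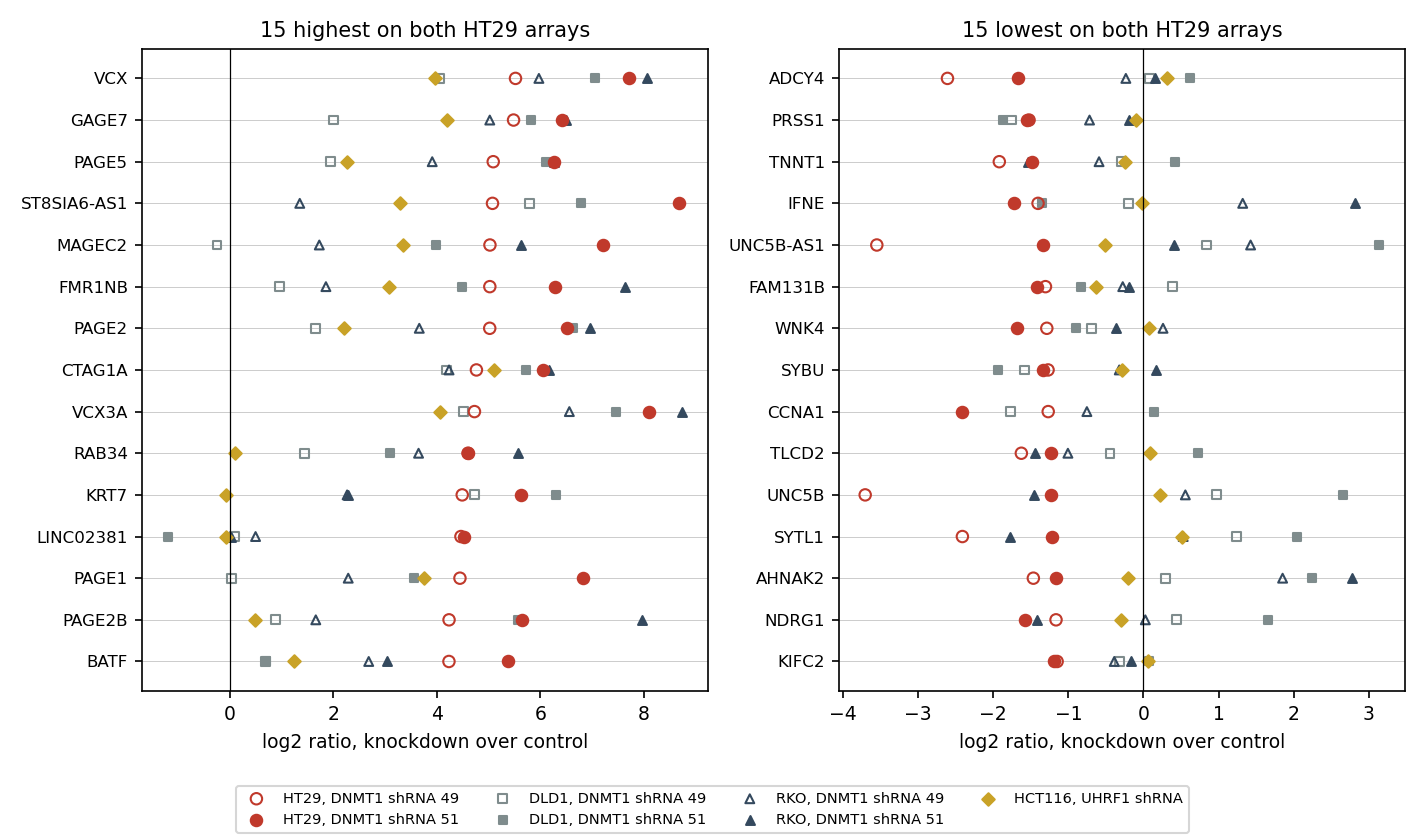
Log2 ratios (x axis, knockdown over control) of the 15 genes highest (left) and the 15 lowest (right) on both HT29 arrays among genes without a shared ratio there, ranked by the HT29 value nearer 0. Each point is 1 array, HT29 in red, with open symbols for shRNA 49 and filled ones for shRNA 51. VCX and GAGE7 lie high in every line, LINC02381 lies near 4.5 in HT29 alone of the 4 lines shown, and the lowest genes stay above -4 and often lie above 0 in DLD1 or RKO.

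The promoters of MAGEC2 and BATF are shown because these 2 genes rose in HT29 and one is a germline gene and the other is not. Both are RefSeq sequences of GRCh38.p14, read from 250 bases before to 50 bases after the gene start, with CpG sites in capitals. MAGEC2 lies at chrX:142205241-142205540 on the minus strand and BATF at chr14:75522219-75522518 on the plus strand. They hold 10 and 7 CpG sites, which is 0.389 and 0.443 of the number that their base composition would give.
MAGEC2: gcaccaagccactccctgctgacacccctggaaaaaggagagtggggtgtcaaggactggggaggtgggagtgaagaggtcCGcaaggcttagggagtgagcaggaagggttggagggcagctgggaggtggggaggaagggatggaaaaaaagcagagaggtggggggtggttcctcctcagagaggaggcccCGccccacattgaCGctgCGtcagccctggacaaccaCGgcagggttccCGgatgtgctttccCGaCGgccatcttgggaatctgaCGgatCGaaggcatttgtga
BATF: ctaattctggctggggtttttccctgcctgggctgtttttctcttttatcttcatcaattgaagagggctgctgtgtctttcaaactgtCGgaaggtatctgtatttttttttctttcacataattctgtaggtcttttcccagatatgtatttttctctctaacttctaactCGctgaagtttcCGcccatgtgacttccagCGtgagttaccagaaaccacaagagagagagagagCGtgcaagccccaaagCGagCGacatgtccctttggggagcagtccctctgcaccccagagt

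In HT29 267 genes were at least 2-fold higher on both arrays (1.57% of 16963) and 69 at least 2-fold lower on both (0.407%). The same rule counted 338 higher genes in DLD1 (1.89% of 17874) and 343 in RKO (2.02% of 17010). The sign was the same on both HT29 arrays for 8848 genes (52.2%), 4631 of them above 0 and 4217 below. Among the 267, HT29 values ran from 1.01 to 5.52 with shRNA 49 and from 1.04 to 8.67 with shRNA 51, and 191 genes (71.5%) had no shared ratio, against 54.1% of all genes. Of the 69, 30 (43.5%) had none, and the count was 35 when shared ratios were left out.

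The genes higher on both HT29 arrays overlapped in part with those of the other lines. Of 259 that DLD1 also measured on both arrays, 56 (21.6%) were at least 2-fold higher on both there, which is 18.5% of DLD1's own genes of that kind, against 1.82% of all genes measured in both lines. Of 220 that RKO measured, 57 (25.9%) were higher on both there, 18.5% of RKO's own, against 1.93% of all genes. Of 218 with a value on every DNMT1 array, 29 were higher on both arrays in all 3 lines, and 6 lay within 0.5 of 0 on all 4 arrays of DLD1 and RKO. Neither of these counts was made over all genes. The medians of the 267 were 0.38 and 1.70 in DLD1, 0.42 and 1.22 in RKO, and 0.28 with UHRF1 knockdown in HCT116. For the 69 lower genes, 4 of 65 (6.15%) were also lower on both in DLD1, against 0.361% of all genes. In RKO it was 5 of 62 (8.06%), against 0.644% of all genes, and 0 of 60 were so in both lines.

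The X chromosome held 42 of the 267 higher genes (15.7%), against 611 of all 16963 genes (3.60%). Of the 267, 27 were on the list of cancer-testis antigens, many of them X-linked. The X count was not made without them, so it is not a separate result. Promoters of the higher genes were poorer in CpG sites than those of all genes. RefSeq gave a promoter for 206 of the 267, whose median observed over expected CpG ratio was 0.534, against 0.794 over 13371 genes. Without genes that held a shared ratio the medians were 0.524 over 145 higher genes and 0.838 over 7417 genes. For the 69 lower genes the median was 0.411 over 46 promoters, and 0.668 over 21 promoters without shared ratios. Genes higher and lower with shRNA 51 alone, as defined below, had medians of 0.647 and 0.516, and 0.769 and 0.633 without shared ratios. With shRNA 49 alone the medians were 0.820 and 0.767. A ratio below that of all genes was thus not particular to the 267 genes.

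**Figure D2:**
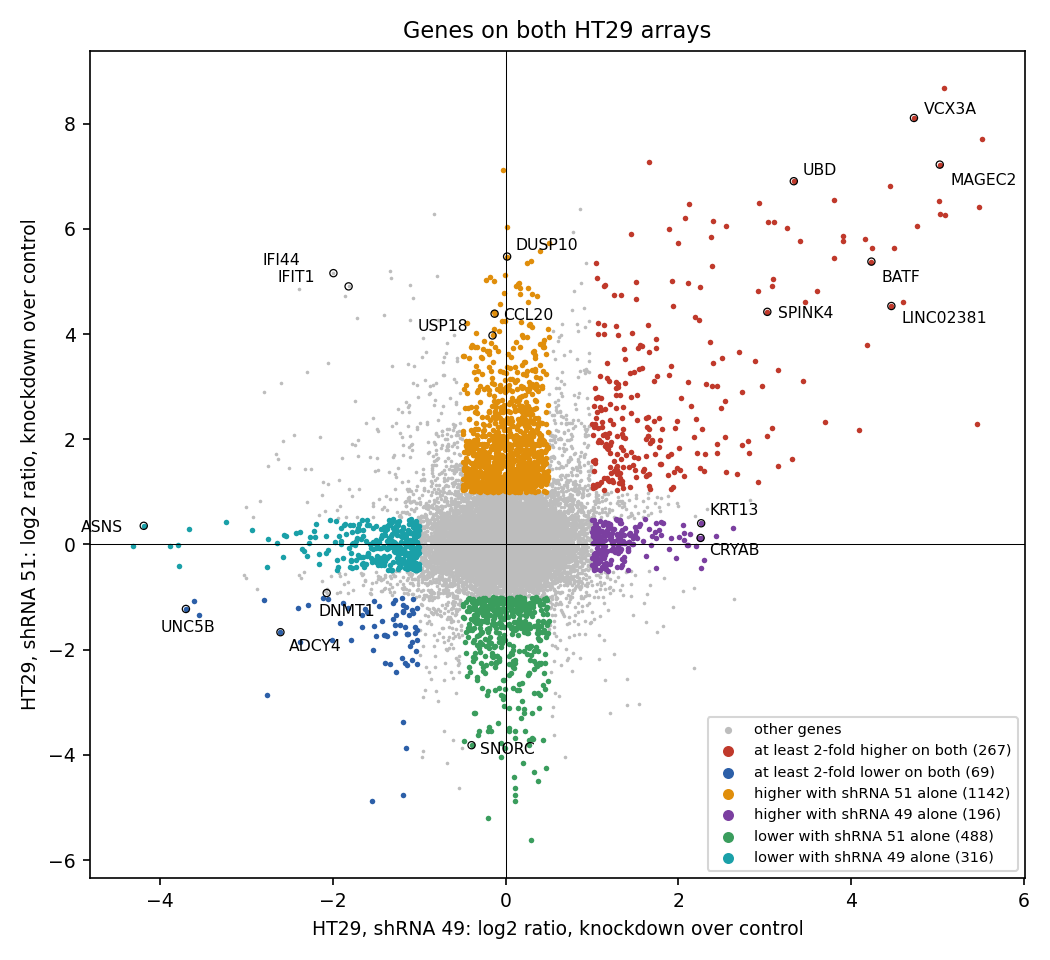
Each point is 1 of 16963 genes, with its HT29 log2 ratio for shRNA 49 on the x axis and for shRNA 51 on the y axis. Red points are at least 2-fold higher on both (267) and blue points at least 2-fold lower on both (69). Orange, green, purple and teal points are past 2-fold on 1 array and within 0.5 of 0 on the other, and the orange group, higher with shRNA 51 alone, holds 1142 genes.

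Cancer-testis antigens made up the largest set among the genes higher on both arrays of the 28 lists examined. Of 39 with both HT29 values, 27 were at least 2-fold higher on both (1.57% of all genes) and 0 were lower on both. Above 0 on both lay 36. Of 37 tested in limma, 29 were higher at an unadjusted p under 0.05, against 982 of all 16809 genes. The list's median in HT29 was 1.44 (shRNA 49) and 4.32 (shRNA 51), against -0.02 and 0.05 over all genes. In DLD1 the medians were 0.51 and 3.56 and in RKO 0.99 and 4.46. GAGE7 stood at 5.49 and 6.42 in HT29, PAGE5 at 5.09 and 6.26, PAGE2 at 5.02 and 6.53 and PAGE1 at 4.45 and 6.82, and none of these 4 passed in limma. With shRNA 51 alone 7 members were at least 2-fold higher (6.73% of all genes were), among them MAGEA10 (0.44 and 3.89) and SAGE1 (0.43 and 2.98). SSX5 (-0.30 and 0.28) and FATE1 (0.24 and 0.19) stayed near 0 on both arrays, all shared ratios.

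Germline genes of the piRNA pathway, which silences transposons in germ cells, and of meiosis were more mixed. Of 37 with both values, 8 were at least 2-fold higher on both arrays (1.57% of all genes) and 7 with shRNA 51 alone (6.73% of all genes), with medians of 0.07 and 1.15, and 0 passed in limma. MAEL, a piRNA pathway factor, stood at 3.61 and 4.82 in HT29, against -0.32 and 4.55 in DLD1 and 1.06 and 5.82 in RKO. With shRNA 49 its HT29 value was the highest of the 3 lines, and with shRNA 51 it lay between the others. GTSF1, which acts in the same pathway, stood at 3.10 and 5.04. TDRD12, a tudor domain protein, stood at 1.46 and 5.90. STRA8, which starts meiosis, stood at 1.46 and 4.02. DDX4, the germ cell RNA helicase, lay at 0.30 and 5.40, the first a shared ratio.

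Other genes high on both HT29 arrays were on neither the cancer-testis list nor the piRNA and meiosis list. RAB34, a small GTPase, stood at 4.61 on both arrays. ST8SIA6-AS1, an antisense RNA, stood at 5.08 and 8.67. UCHL1, a ubiquitin hydrolase often silenced by methylation in colorectal tumours, stood at 2.94 and 6.49, and HLTF, a chromatin remodeller of the same list, at 1.55 and 3.33. The HLTF values are means of 2 probes, of which 1 held shared ratios (0.17 and 2.03) and the other did not (2.92 and 4.63). These 2 were the only members at least 2-fold higher on both of 44 genes known for promoter hypermethylation in colorectal cancer, against 1.57% of all genes. The list's medians were -0.12 and 0.15. Of 21 imprinted genes 2 were at least 2-fold higher on both, against the same 1.57% of all genes. These were SGCE, a sarcoglycan gene (2.71 and 3.65), and H19, a non-coding RNA (1.20 and 3.12).

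Some of the genes high on both arrays were near 0 in the other lines. UBD, a ubiquitin-like modifier induced by inflammatory signals, stood at 3.34 and 6.91 in HT29 and between -0.13 and 0.64 in DLD1 and RKO. LUM, a matrix proteoglycan, stood at 3.41 and 5.77, and C1QTNF9 and its near-identical copy C1QTNF9B at 4.19 and 3.79 and at 3.16 and 3.31. BTNL8, a butyrophilin-like gene of gut epithelium, stood at 3.45 and 3.10, against -0.89 and -1.15 in DLD1 and -0.50 in RKO with shRNA 49. The test of HT29 minus the mean of DLD1 and RKO called 0 of 16809 genes in limma, with 1136 at an unadjusted p under 0.05 and a smallest adjusted p of 0.570. LINC02381 had a difference of 4.64 ± 0.38 (SE) and an adjusted p of 0.570 in that test by limma. No gene was therefore shown to be particular to HT29.

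Secretory genes of the intestine included members of that kind. SPINK4, a protease inhibitor of goblet cells, stood at 3.03 and 4.42 in HT29, against 0.19 and -1.64 in DLD1 and -0.28 and -1.21 in RKO. ATOH1, the transcription factor that directs cells to the secretory lineage, stood at 1.24 and 2.29 in HT29 and between -0.04 and 0.38 elsewhere on the DNMT1 arrays. Neither gene had an HT29 value that overlapped with those of DLD1 and RKO. Both were named with their values known, and such non-overlap was not counted over all genes. ZG16, a goblet cell lectin, stood at 2.97 and 3.00 in HT29, against 1.56 and 4.16 in DLD1 and -1.28 and -0.96 in RKO. FCGBP, a mucus protein, stood at 1.62 and 2.40. The trefoil peptides TFF2 and TFF3 stood at 1.67 and 1.94 and at 1.15 and 1.88. These 6 of 31 secretory genes were at least 2-fold higher on both arrays, against 1.57% of all genes. Of the 31, 0 were at least 2-fold lower on both (0.407% of all genes were), and 0 passed in limma. The list split both ways: 12 members lay above 0 and 11 below 0 on both arrays, against 27.3% and 24.9% of all genes. With shRNA 51 9 were at least 2-fold higher and 5 at least 2-fold lower, against 11.5% and 4.60% of all genes. Other members lay lower. MUC2, the main gel mucin of the colon, lay at 0.49 (3 probes between -0.19 and 1.28) and 0.08, SPDEF, a goblet cell transcription factor, at -0.99 and -1.46, and the list's medians were -0.01 and 0.10. Absorptive genes had medians of -0.09 and 0.22, with CEACAM5, the carcinoembryonic antigen gene, the 1 of 28 higher on both (1.39 and 1.70).

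Genes lower in HT29 were fewer, and none passed the test, with a smallest adjusted p of 0.131 by limma. That value belonged to ADCY4, an adenylyl cyclase, which lay at -2.61 and -1.67 in HT29 and within -0.23 to 0.62 in DLD1 and RKO. UNC5B, a netrin receptor, lay at -3.70 and -1.23 and its antisense neighbour UNC5B-AS1 at -3.55 and -1.34. In DLD1 UNC5B stood at 0.97 and 2.65 and UNC5B-AS1 at 0.84 and 3.13, the opposite side of 0. Without shared ratios 1 gene was called lower in limma, and it was UNC5B-AS1, named here after its value was seen. The 3 lists of markers of other cell types had medians between -0.14 and 0.47 on the HT29 arrays.

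Some genes were high in the other lines and not in HT29. DKK1, a secreted inhibitor of Wnt signalling, lay at -1.58 and 0.00 in HT29, against 4.19 and 9.07 in DLD1 and 4.66 in RKO with shRNA 49, where shRNA 51 gave no value. CDKN2A, the p16 tumour suppressor gene, lay at -0.38 and -0.45 in HT29, against 1.52 and 3.30 in DLD1 and 2.97 and 4.55 in RKO. S100A2, a calcium-binding protein gene, lay at -0.19 and -0.15 in HT29 and between 1.19 and 6.39 in the others, and CRIP1, a LIM domain protein gene, at -1.14 and -0.53 against 2.24 to 4.26. The HT29 values of these 4 genes lay below those of every other DNMT1 array that measured them. The genes were named with these values known, and such non-overlap was not counted over all genes. The adjusted p of the difference was 0.679 for DKK1 and 0.612 for CDKN2A by limma, and 0 genes passed.

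The genes that differed between the HT29 arrays were asked for next. With shRNA 51 1142 genes (6.73%) were at least 2-fold higher while they lay within 0.5 of 0 with shRNA 49. With shRNA 49 alone 196 were higher (1.16%). Lower with shRNA 51 alone were 488 genes (2.88%) and lower with shRNA 49 alone 316 (1.86%). In DLD1 1385 genes (7.75%) and in RKO 1306 genes (7.68%) were higher with shRNA 51 alone, so a large set of this kind was found in each line. With no replicate of either shRNA, these are counts by fold, without a test.

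Shared ratios were common among genes past 2-fold with shRNA 51 alone. Of the 1142 genes, 225 (19.7%) had no shared ratio on either HT29 array, and of the 488 lower ones 60 (12.3%), against 54.1% of all genes. Without shared ratios 336 and 97 genes met these rules. The corresponding shares were 64.3% for the 196 genes and 70.6% for the 316 genes of shRNA 49. The counts depended on the scaling of the arrays. After quantile normalization 782 genes were higher with shRNA 51 alone and 688 with shRNA 49 alone, and 363 were lower with shRNA 51 alone and 472 with shRNA 49 alone. The counts of higher genes were thus near each other for the 2 shRNAs under that normalization, and higher genes outnumbered lower ones with shRNA 49 alone, the reverse of the counts above. After scaling to 1 median absolute deviation 977 were higher with shRNA 51 alone and 337 with shRNA 49 alone, and 406 and 476 lower.

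Of the 1081 genes higher with shRNA 51 alone that DLD1 also measured, 187 (17.3%) were in the same class there, 16.4% of DLD1's own class, against 6.87% of all genes. Of 958 in RKO it was 132 (13.8%), 11.6% of RKO's own, against 7.14%. With shRNA 49 alone 3 of 195 genes (1.54%) were in the same class in DLD1, against 0.253% of all genes. They made up 7.14% of that class there. In RKO it was 6 of 183 (3.28%), against 1.66% of all genes, and 2.26% of that class. In both lines 30 of 929 genes shared the class of shRNA 51, while 109 (11.7%) lay within 0.5 of 0 on all 4 arrays of DLD1 and RKO. Neither count was made over all genes, so whether these shares are high or low was not tested.

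Interferon-stimulated genes, which cells switch on to block viruses, were the list with the widest gap between the HT29 arrays. Of 47 with both values, 41 were at least 2-fold higher with shRNA 51 (11.5% of all genes were), and 13 were at least 2-fold lower with shRNA 49 (3.69% of all genes were). The medians were -0.56 with shRNA 49 and 3.04 with shRNA 51, against -0.10 and 0.29 in DLD1, 0.19 and -0.28 in RKO and 0.60 with UHRF1 knockdown in HCT116. With shRNA 51 46 of the 47 lay above 0 (54.1% of all genes did), while 4 lay above 0 on both HT29 arrays (27.3% of all genes). In limma 0 of 46 tested members passed, 6 were higher and 0 lower at an unadjusted p under 0.05. Of all 16809 genes 982 were higher and 470 lower at that p.

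IFIT1, which binds viral RNA, stood at 4.91 with shRNA 51 and -1.82 with shRNA 49 in HT29, against -0.09 and -1.42 in DLD1 and -2.07 and 1.13 in RKO in the same order. IFI44, another gene that interferon induces, stood at 5.16 with shRNA 51 and -1.99 with shRNA 49, and OASL, of the oligoadenylate synthetase family, at 2.89 and -2.80. LAMP3, a lysosomal membrane gene, stood at 4.72 and -1.86. These genes lay on opposite sides of 0 on the HT29 arrays. Others lay near 0 with shRNA 49. USP18, the protease that removes ISG15 from proteins, lay at -0.15 with shRNA 49 and 3.97 with shRNA 51 in HT29 and between -0.43 and -0.05 in DLD1 and RKO. OAS3, which activates RNase L, lay at -0.35 and 3.74. IFI44L was the highest, at 6.28 with shRNA 51 and -0.83 with shRNA 49.

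The HT29 gap of shRNA 51 minus shRNA 49, set against the same gap in DLD1 and RKO, was 8.63 ± 2.61 for IFI44 and 7.66 ± 1.98 for IFIT1 (SE). Neither passed, with adjusted p of 0.978 and 0.956 by limma. Over the 15793 genes that all 6 DNMT1 arrays measured, this test called 0 genes in limma, 789 had an unadjusted p under 0.05, and the smallest adjusted p was 0.946. The test has 1 array per line and shRNA.

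The promoter of IFIT1 is shown because it carries the motif that interferon-activated factors bind and the gene had one of the widest gaps between the HT29 arrays. It lies at chr10:89392373-89392672 on the plus strand (RefSeq, GRCh38.p14), and capitals mark 2 matches to GAAANNGAAA, both on the opposite strand and thus read as TTTCNNTTTC.
IFIT1: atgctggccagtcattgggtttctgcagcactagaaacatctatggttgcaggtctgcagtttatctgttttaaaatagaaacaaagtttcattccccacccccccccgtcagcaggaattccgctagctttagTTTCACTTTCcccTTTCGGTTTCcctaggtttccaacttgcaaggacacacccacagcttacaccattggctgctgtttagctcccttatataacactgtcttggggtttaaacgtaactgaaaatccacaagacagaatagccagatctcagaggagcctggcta
Searched on both strands of the 300-base windows, this motif stood in 27 of 37 promoters of interferon-stimulated genes (73.0%) and 9 of 17 of MHC class I presentation genes (52.9%), against 2.93% of 13371 promoters. It stood in 5.13% of the promoters of genes higher with shRNA 51 alone and in 3.40% of those of genes higher on both arrays. Without genes that held a shared ratio the shares were 11.6% with shRNA 51 alone and 2.82% of all.

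Sensors of viral RNA and mediators upstream of these genes were more mixed. RIGI and IFIH1, which detect double-stranded RNA in the cytosol, reached 2.96 and 3.22 on the shRNA 51 array of HT29, against -0.48 and -0.71 on its shRNA 49 array. DHX58, their relative, lay at -2.06 with shRNA 49 and 3.45 with shRNA 51. IRF9, a subunit of the interferon-activated transcription factor, lay at -1.07 and 3.07 in the same order. IRF7, which amplifies interferon production, lay at -0.45 and 1.79. All 5 were below 0 on the shRNA 49 array and past 2-fold higher on the shRNA 51 array. Of 32 such genes 13 were at least 2-fold higher with shRNA 51 (11.5% of all genes were). At least 2-fold lower with shRNA 49 were 3 (3.69% of all genes were), and the medians were -0.08 and 0.53. The list held 6 interferon genes. IFNL1 and IFNL2, of type III, lay at -0.11 and 1.52 and at -0.36 and 1.24. IFNL3, of the same type, lay at 0.79 with shRNA 49, a shared ratio, and had no value with shRNA 51. IFNB1, of type I, lay at -0.08 and -0.80, both shared ratios, and IFNE, also of type I, at -1.40 and -1.72. IFNG, of type II, lay at 0.17 and -1.57. STING1, the DNA-sensing adaptor, lay at -0.89 and -0.86, below 0 on both arrays.

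Antigen presentation and inflammatory genes were also higher with shRNA 51. For MHC class I presentation the medians were 0.06 and 1.36, with 13 of 20 genes at least 2-fold higher with shRNA 51 and 10 above 0 on both. Of all genes 11.5% were at least 2-fold higher with shRNA 51 and 27.3% lay above 0 on both. PSMB9, an immunoproteasome subunit, lay at -0.43 and 3.54 and TAP1, a peptide transporter, at -0.32 and 3.30. HLA-B, which presents peptides to T cells, lay at 0.63 and 2.01. In DLD1 the list's medians were -0.08 and 0.20 and in RKO 0.03 and -0.14. For MHC class II, CD74, the invariant chain, lay at 0.39 and 3.81, and CIITA, the master regulator of the class, at -0.10 and -0.21, means of 4 probes, 3 of them with a shared ratio for shRNA 49 and 2 for shRNA 51. Of 14 class II genes 5 were at least 2-fold higher with shRNA 51, against 11.5% of all genes. The class II medians were -0.09 and 0.70 in HT29, against 0.01 and 0.53 in DLD1 and 0.03 and 0.76 in RKO. In both lists 0 genes passed in limma.

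NF-kB targets and chemokines had medians of 0.16 and 1.58 in HT29, against -0.08 and 0.25 in DLD1 and -0.01 and 0.42 in RKO. Of 40 genes 28 were at least 2-fold higher with shRNA 51 (11.5% of all genes were), and 3 were so on both arrays (1.57% of all genes). These were CXCL1, a neutrophil chemokine (1.15 and 4.93), IL32, a cytokine (1.78 and 2.41), and LTB, lymphotoxin beta (1.05 and 2.41). CXCL8, another neutrophil chemokine, lay at -0.34 and 3.75, CCL2, which attracts monocytes, at 0.12 and 3.85, and CCL20, a chemokine of gut epithelium, at -0.13 and 4.39. NFKBIA, the inhibitor that NF-kB induces, lay at 0.17 and 2.02. IL6 (-0.34 and -0.42) and RELA, an NF-kB subunit (-0.27 and -0.03), lay below 0 on both arrays. In limma 0 of 40 passed and 14 were higher at an unadjusted p under 0.05, against 982 of all 16809 genes.

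Outside these lists, MFSD6L, a transporter-like gene, lay at 0.50 and 5.73, and DUSP10, a phosphatase of stress kinases, at 0.02 and 5.47 in HT29. SAA4, a serum amyloid gene, lay at 0.27 and 4.17, and C4BPA, a complement inhibitor, at 0.86 and 6.38. All were at 2.11 or below on the other DNMT1 arrays. Metallothioneins, small metal-binding proteins, had medians of -0.69 with shRNA 49 and 1.73 with shRNA 51, with MT2A at -0.90 and 1.95. Of 11 members 9 were at least 2-fold higher with shRNA 51, against 11.5% of all genes. In RKO the medians were -0.36 and 3.05 and in DLD1 0.02 and 1.36. Lower with shRNA 51 alone were SNORC, a chondrocyte proteoglycan gene (-0.39 and -3.82), and ANGPTL4, which inhibits lipoprotein lipase (0.38 and -2.25).

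**Figure D3:**
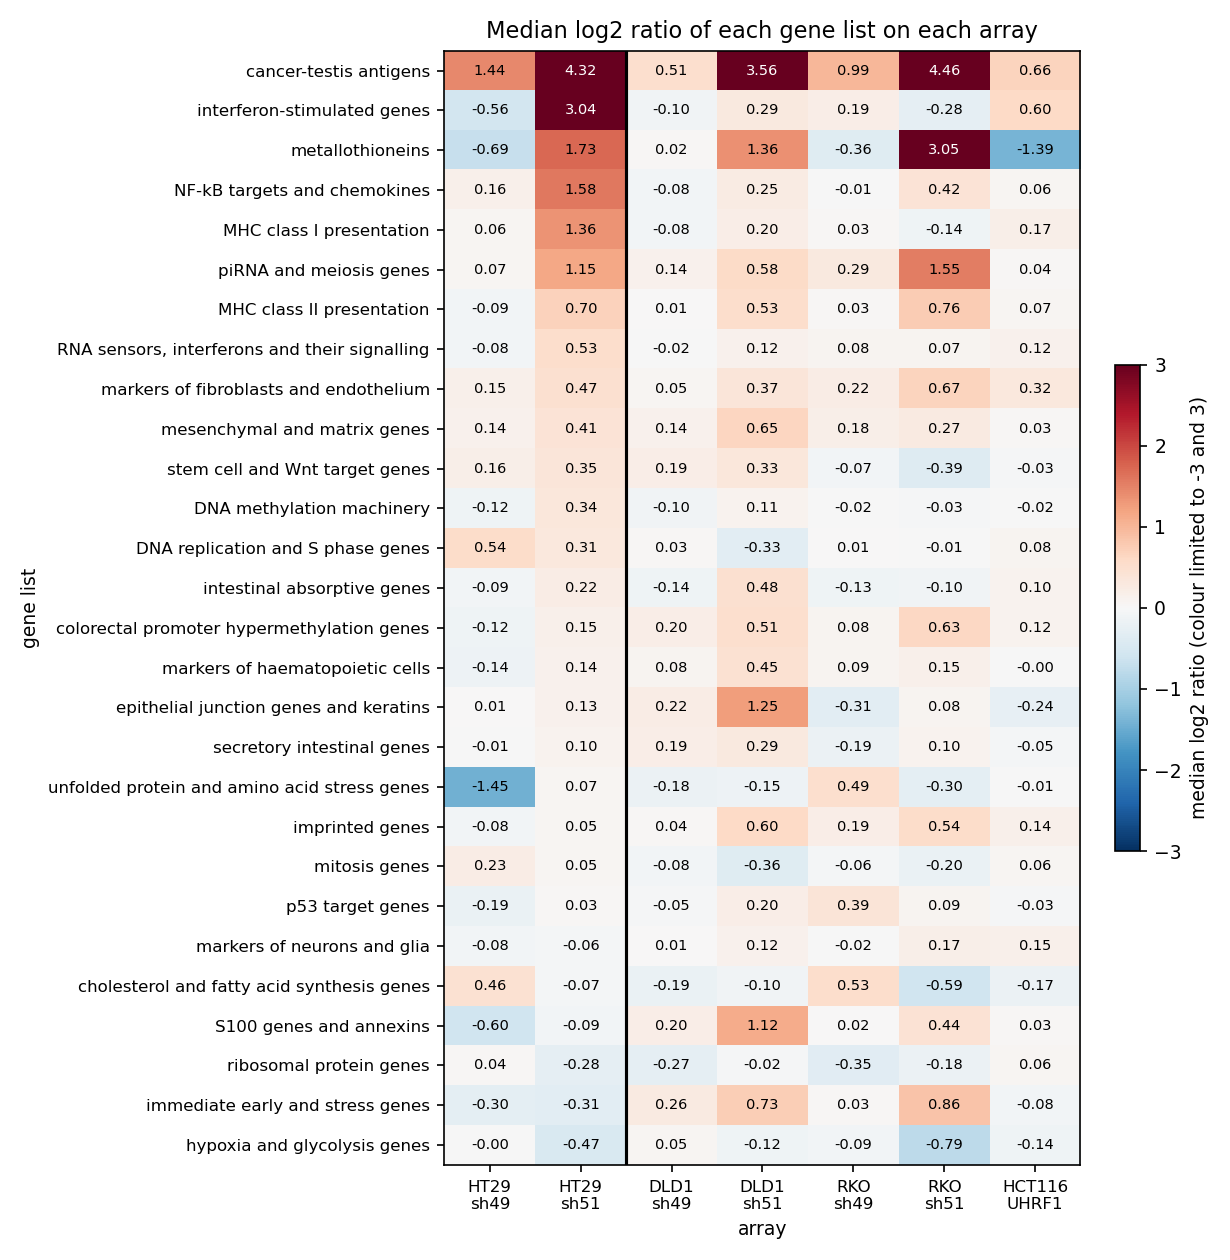
Median log2 ratio of the 28 gene lists (rows, ordered by HT29 with shRNA 51) on the 7 arrays (columns, HT29 on the left of the black line). Red is above 0 and blue below 0. Interferon-stimulated genes reach 3.04 in HT29 with shRNA 51 and stay between -0.56 and 0.60 on the other arrays, while cancer-testis antigens lie above 0 on all 7.

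Genes of the unfolded protein and amino acid stress responses had a median of -1.45 with shRNA 49 and 0.07 with shRNA 51 in HT29, against -0.18 and -0.15 in DLD1 and 0.49 and -0.30 in RKO. Of 31 genes 18 were at least 2-fold lower with shRNA 49 (3.69% of all genes were), 13 of them within 0.5 of 0 with shRNA 51 (1.86% of all genes). DDIT4, an inhibitor of mTOR signalling, was the 1 member at least 2-fold lower on both arrays (-3.61 and -1.07). ASNS, which makes asparagine, lay at -4.19 with shRNA 49 and 0.36 with shRNA 51 in HT29, against -0.94 and -0.49 in DLD1 and 0.03 and -2.67 in RKO. PSAT1, of serine synthesis, lay at -2.94 and 0.27 in HT29. PHGDH, of the same pathway, lay at -2.16 and -0.19. These 3 amino acid synthesis genes were low with shRNA 49 and near control with shRNA 51 in HT29, while in RKO they were low with shRNA 51. TRIB3, a pseudokinase induced by amino acid stress, lay at -2.77 and -0.42. ATF4, the transcription factor of this response, lay at -1.93 and 0.17. Chaperones of the list lay nearer 0, with HSPA5 at -0.32 and 0.34 and HSP90B1 at -0.03 and 0.04. In limma 0 of 31 passed.

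The promoter of ASNS is shown because the gene had the lowest value of its list and carries a match to the C/EBP-ATF response element that ATF4 is known to bind. It lies at chr7:97872359-97872658 on the minus strand (RefSeq, GRCh38.p14), and capitals mark the match to TGATGNAA.
ASNS: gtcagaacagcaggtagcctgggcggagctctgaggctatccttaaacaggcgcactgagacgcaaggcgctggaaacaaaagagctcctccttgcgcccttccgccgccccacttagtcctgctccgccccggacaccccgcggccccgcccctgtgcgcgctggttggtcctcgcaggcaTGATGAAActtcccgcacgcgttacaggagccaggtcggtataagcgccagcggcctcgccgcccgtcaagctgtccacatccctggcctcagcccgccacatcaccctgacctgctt
On either strand this motif stood in 4 of 28 promoters of the list (14.3%) and in 6.05% of those of genes lower with shRNA 49 alone, against 2.33% of all promoters. The motif was not particular to that class. It stood in 5.31% of promoters of genes lower with shRNA 51 alone and 6.52% of those lower on both arrays. For higher genes it was 3.73% with shRNA 51 alone, 1.95% with shRNA 49 alone and 0.971% on both. Without shared ratios it stood in 7.95% with shRNA 49 alone, against 1.93% of all promoters. It was then 4.17% for genes lower with shRNA 51 alone and 9.52% of 21 promoters of genes lower on both.

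Further genes low with shRNA 49 alone were PCK2, a mitochondrial enzyme of gluconeogenesis (-3.79 and -0.41), ANXA13, an intestinal annexin (-3.79 and -0.02), and the myosin light chains MYL12A (-3.89 and -0.03) and MYL12B (-3.67 and 0.30), which are near-identical copies. In DLD1 MYL12A and MYL12B also lay below 0 with shRNA 49, at -1.64 and -1.61, and in RKO at 0.34 and -0.15. High with shRNA 49 alone were KRT13, a keratin of stratified epithelia (2.27 and 0.40), CRYAB, a small heat shock protein (2.26 and 0.12), and HPGD, which degrades prostaglandins (2.07 and 0.21). LGR5, the receptor that marks intestinal stem cells, lay at 2.83 and 0.84 and AXIN2, a Wnt target, at 1.60 and 0.63. Of 22 stem cell and Wnt target genes 10 lay above 0 on both arrays, against 27.3% of all genes. The medians were 0.16 and 0.35, and 0 passed in limma.

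**Figure D4:**
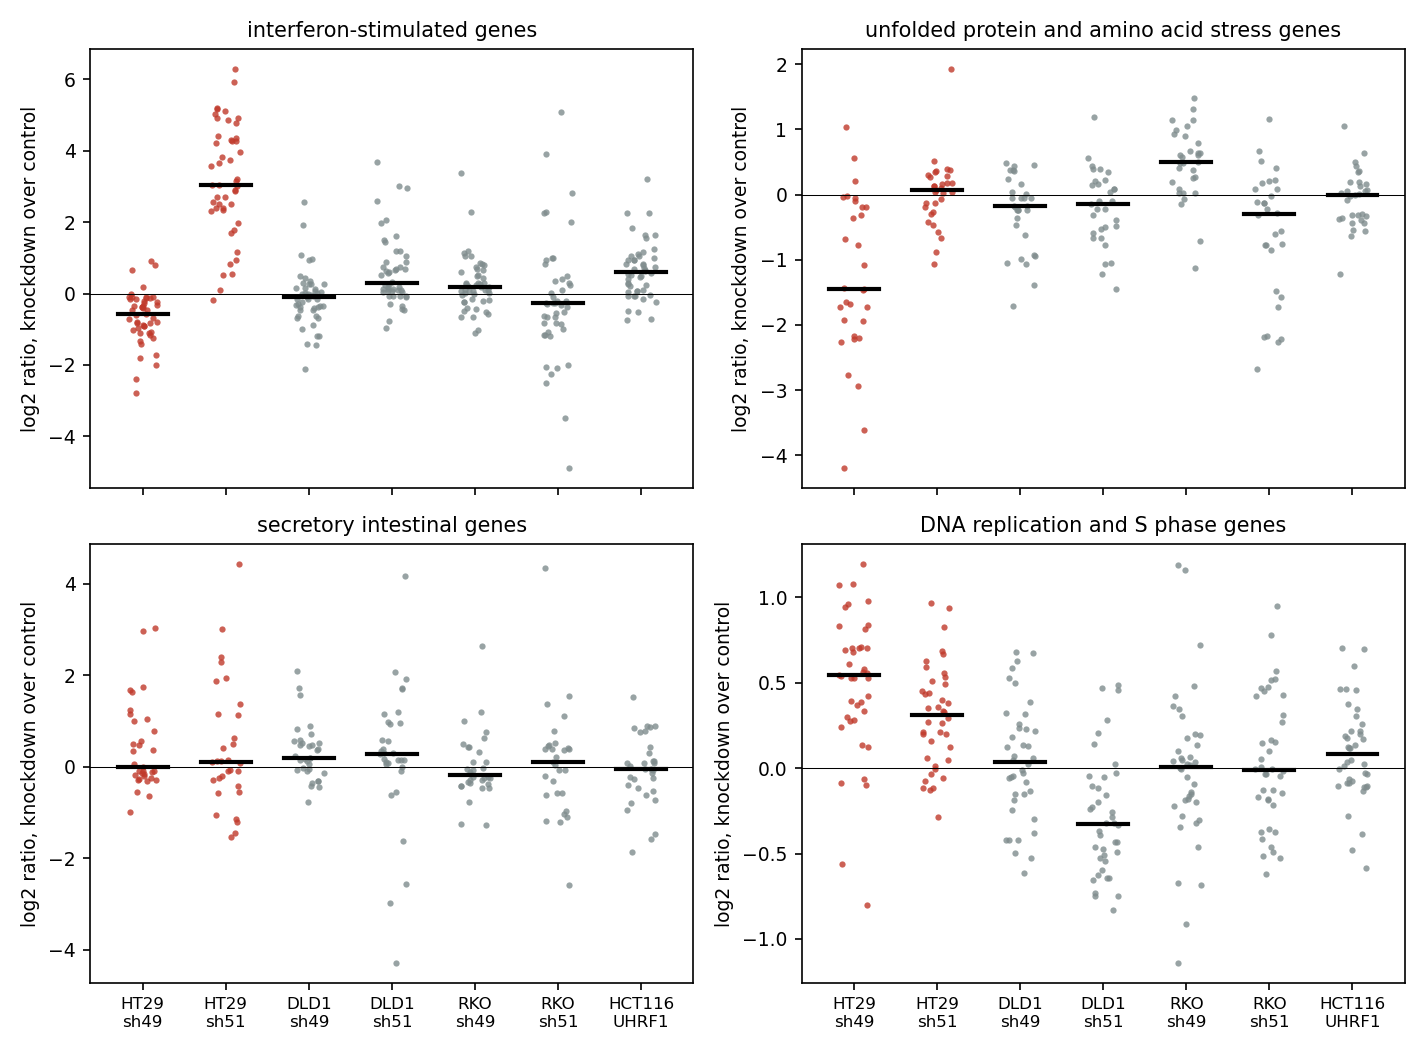
Log2 ratios of the members of 4 gene lists (points) on each array, with HT29 in red, the other lines in grey and the list's median as a black bar. In HT29 interferon-stimulated genes lie high with shRNA 51 and the stress genes low with shRNA 49, while most S phase genes lie above 0 on both HT29 arrays.

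The HT29 medians lay on the same side of 0 for 14 of the 28 lists. Genes of DNA replication and S phase had medians of 0.54 and 0.31 in HT29, with 29 of 40 above 0 and 2 below 0 on both arrays, against 27.3% and 24.9% of all genes. In DLD1 the medians were 0.03 and -0.33 and in RKO 0.01 and -0.01. GINS1 and GINS2, subunits of the replicative helicase, stood at 1.19 and 0.67 and at 1.08 and 0.59, MCM10, a replication initiation factor, at 0.96 and 0.63, and RFC3, a clamp loader subunit, at 0.71 and 0.82. In limma 0 of 40 passed, and 6 were higher at an unadjusted p under 0.05, against 982 of all 16809 genes. Mitosis genes had medians of 0.23 and 0.05, with 19 of 46 above 0 on both.

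Immediate early and stress genes lay below 0 on both arrays for 17 of 30, against 24.9% of all genes, with medians of -0.30 and -0.31. EGR1 and KLF6, transcription factors that growth signals induce, lay at -1.35 and -0.84 and at -1.08 and -0.94, while HSPH1, a heat shock protein, stood at 1.42 and 0.51. S100 genes and annexins, calcium-binding proteins, had medians of -0.60 and -0.09. Of 24, 14 lay below 0 on both (24.9% of all genes did), among them S100P (-2.39 and -0.58). In these 2 lists 0 genes passed in limma. KRT7 was the 1 of 33 junction and keratin genes, and FSTL1 the 1 of 36 mesenchymal and matrix genes, that passed.

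Mesenchymal and matrix genes had medians of 0.14 and 0.41 in HT29. Of 36, 4 were at least 2-fold higher on both arrays (1.57% of all genes were): FSTL1, LUM, FN1 and COL4A2. FN1, fibronectin, stood at 1.09 and 3.20, means of 3 probes, 1 of which held shared ratios. COL4A2, a basement membrane collagen, stood at 1.24 and 1.22. VIM, the mesenchymal intermediate filament gene, lay at 0.05 (2 probes, both with shared ratios) and 3.15 in HT29, against -0.31 and 1.83 in DLD1 and 4.07 and 7.14 in RKO. Of the 3 lines, RKO was the 1 with VIM past 2-fold on both arrays. KRT23, a keratin, stood at -1.32 and 5.06 in HT29, against 4.56 and 8.44 in DLD1, and thus on opposite sides of 0 on the HT29 arrays.

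A few markers that a colon line should lack were seen among the genes that were high. NEFH, a neurofilament gene of neurons, stood at 2.93 and 4.82 in HT29, against 1.19 and 4.36 in DLD1 and 1.03 and 4.76 in RKO. It was 1 of 2 of the 14 neuronal and glial markers that were at least 2-fold higher on both HT29 arrays. The other was MAP2, a microtubule protein of dendrites, at 1.02 and 1.07. Its 2 probes lay on opposite sides of 0 with shRNA 51, at -0.54 and 2.68, both shared ratios. CSF1R, the receptor of macrophage growth factor, stood at 1.04 and 1.56 and was the 1 of 21 haematopoietic markers so placed. For fibroblasts and endothelium these were LUM and TEK, an angiopoietin receptor (1.09 and 1.15), of 19 markers. Of all genes 1.57% were at least 2-fold higher on both HT29 arrays. Other markers went the other way. On both arrays 3 of the 14 neuronal and glial markers lay above 0 and 3 below. For the 21 haematopoietic markers it was 7 and 8, and for the 19 of fibroblasts and endothelium 12 and 4. Of all genes 27.3% lay above 0 and 24.9% below 0 on both. In these 3 lists of markers 0 genes passed in limma, and their part in other results was not tested.

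Metabolic lists showed smaller ratios. Genes of cholesterol and fatty acid synthesis had medians of 0.46 with shRNA 49 and -0.07 with shRNA 51 in HT29. HMGCS1, an early enzyme of that pathway, stood at 0.92 and 1.12, and FASN, fatty acid synthase, at 1.01 and 0.65. Of 29 genes 10 lay above 0 and 2 below 0 on both arrays, against 27.3% and 24.9% of all genes. Genes of hypoxia and glycolysis had medians of 0.00 and -0.47, and 14 of 36 lay below 0 on both, against 24.9% of all genes. NDRG1, which hypoxia induces, was the 1 member at least 2-fold lower on both, at -1.16 and -1.57. Ribosomal protein genes had medians of 0.04 and -0.28, and 0 of 50 were past 2-fold on either array. Targets of p53 had medians of -0.19 and 0.03, with GDF15, a stress cytokine, at -2.75 and 0.11. In these 4 lists 0 genes passed in limma.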

How the data were processed

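The authors deposited a log ratio for each probe of each array, read here as log2 because of the range. Per the submitters' processing notes limma was used (version not given). How background was corrected, how arrays were normalized, the log base and the direction are not stated in the labels or file headers. Signal strengths were not used, so dim probes could not be filtered, and the small number of arrays limits the precision.

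Probes were named through GEO's platform annotation (29341 of 41000 with 1 symbol, 33 with several, 11626 with none listed), and 99.9% of the named ones matched RefSeq genes of GRCh38.p14. Log2 ratios of a gene's probes were averaged. Genes with a value on both HT29 arrays and on at least 5 of the 6 DNMT1 arrays were tested with limma 3.58.1 (R 4.3.3), with 1 coefficient per line and an shRNA term, two-sided, with Benjamini-Hochberg adjustment and a threshold of 0.05. The fit was tested on simulated data. SEs leave out the difference between the shRNAs, and a control RNA that both arrays may share adds no spread to the test against 0.

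The members and gene lists were chosen with earlier results of these data known. Named genes are those that passed, the 15 highest and lowest on both arrays, the extremes on 1 array alone, against the other lines and by the gap between shRNAs, and up to 6 members per list with the largest mean; further list members are named as illustration, after their values were seen. Alternatives were other models, normalizations, filters, probe summaries, fold thresholds, shared ratios left out and each array left out.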

Additional observations from a re-analysis of the deposited data

Results flagged for a closer look

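For 3 gene lists the medians of both HT29 arrays lay on the opposite side of 0 from the medians of all 4 arrays of DLD1 and RKO. The difference was not tested. Mitosis genes had medians of 0.23 and 0.05 in HT29, against -0.08 and -0.36 in DLD1 and -0.06 and -0.20 in RKO, and the HT29 average of the medians lay 0.317 above that of the other lines. Immediate early and stress genes had medians of -0.30 and -0.31 in HT29, against 0.26 and 0.73 in DLD1 and 0.03 and 0.86 in RKO, a difference of -0.781. S100 genes and annexins had medians of -0.60 and -0.09 in HT29, against 0.20 and 1.12 in DLD1 and 0.02 and 0.44 in RKO, a difference of -0.790. Among 28 lists such splits can arise by chance.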

How the results depend on the processing

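The 11 genes called higher became 0 without the shRNA term or with the HT29 arrays alone, 3 when 1 blank HT29 array was allowed (added after seeing the data), 45 after quantile normalization, 39 after scaling to 1 median absolute deviation, 50 without shared ratios and 0 to 12 with 1 array left out. CTAG1A, VCX and VCX3A passed under 8 of 14 alternatives each, COX7B2, CT45A1 and KRT7 under 7, BATF, FSTL1, MAGEC1 and MAGEC2 under 5, and LINC02381 under 4 of 13. Genes called lower numbered 1 without shared ratios and 0 otherwise, also with 1 array left out. No paired analysis was possible because the replicate numbers are the shRNAs, which the fit holds as a term.

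With 1.5-fold and 4-fold thresholds, the genes higher on both arrays were 665 and 69, lower on both 353 and 1, higher with shRNA 51 alone 2151 and 360, higher with shRNA 49 alone 883 and 15, lower with shRNA 51 alone 1336 and 129, and lower with shRNA 49 alone 1104 and 30. Without shared ratios, 35 were lower on both, 336 higher and 97 lower with shRNA 51 alone. Higher with shRNA 49 alone were 688 after quantile normalization and 337 after scaling, and lower with it 472 and 476; after quantile normalization higher genes thus outnumbered lower ones, and 782 were higher with shRNA 51 alone. The share with the same sign was 61.8% among genes past 0.5 on both arrays. Scaling set the medians of cancer-testis antigens to 1.67 (shRNA 49) and 4.08 (shRNA 51). Without shared ratios these were 2.09 and 4.94, and those of piRNA and meiosis genes 0.75 and 2.24. With shRNA 49 they were then -0.80 for interferon-stimulated genes, -0.35 for MHC class II, 0.39 for stem cell and Wnt target genes and -0.91 for S100 genes and annexins, and with shRNA 51 0.93 for RNA sensors and 1.14 for fibroblast and endothelium markers. The cause was not tested. Quantile normalization of the list medians, added after seeing the data, gave 2.56 and 3.51 for cancer-testis antigens, with shRNA 51 2.39 for interferon-stimulated genes, 1.12 for MHC class I, 1.27 for NF-kB targets and 1.37 for metallothioneins, and -1.72 for stress response genes with shRNA 49. Of the 56 list medians 6 changed sign under an alternative, none past 0.0899 in size. Without shared ratios these were, with shRNA 49, MHC class I (-0.0072), imprinted (0.0019), absorptive (0.05) and secretory genes (0.07), and with shRNA 51 neurons and glia (0.08). Hypoxia genes, at 0.00 with shRNA 49, changed under 3 alternatives and secretory genes also after quantile normalization. Of all 308 recomputed counts, shares and medians 259 stayed within the limits set, which were 1.5-fold for counts and 0.226 for list medians. Of the named genes' values 953 of 1077 stayed within theirs. For named genes that had not passed, the limit was the SD of the gene's own HT29 values. That limit is wide where the shRNAs differ, so these tallies are a weak check.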
